A study of Homo sapiens with 4 samples.

Results

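Histone genes were represented by 110 of the 41000 non-control probes of the array, for 78 of its 30499 gene names. They were taken by name, as every probe whose array gene name begins with HIST1H, HIST2H, HIST3H or HIST4H (86 probes of 65 genes, the replication-dependent histone genes) or with H2AF, H3F or H1F (24 probes of 13 genes, the replacement histone genes). Meg-01 is an established human megakaryoblastic leukemia cell line. Total RNA of GATA1 5-13 and of GATA1 4-14, each a single colony that stably carries a lentiviral shRNA against the transcription factor GATA1, was hybridized together with RNA of GATA1 Neg on two-colour Agilent arrays. GATA1 Neg is a pool of Meg-01 cells that received a lentivirus with a negative control shRNA, so that the virus and its selection are shared by all cells compared and the comparison sets single clones against a pool. Each clone had 2 arrays with the dyes exchanged, the knockdown RNA being red on array 1 and green on array 2, and all 4 arrays lay on 1 slide. A labelled extraction text names CMK clones, whereas the other labels name Meg-01, which is used here.

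Histones package DNA into nucleosomes, with H2A, H2B, H3 and H4 in the core particle and H1 on the linker between particles. Replication-dependent histone genes lie in clusters, are read mainly during DNA synthesis, and give mRNAs that end in a stem-loop bound by SLBP in place of a poly(A) tail, although some of them can also give polyadenylated mRNAs. The amplification kit used here is primed with oligo(dT), so the values of replication-dependent genes may come from polyadenylated or internally primed transcripts, and their messages without a tail were not measured separately. Replacement histone genes are scattered, give polyadenylated mRNAs throughout the cell cycle, and encode variants such as H2A.Z, macroH2A and H3.3.

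All values are log2 ratios of knockdown over GATA1 Neg. The GATA1 probe was at -0.21 and -0.34 on the arrays of GATA1 5-13 and at -0.43 and -0.58 on those of GATA1 4-14, so the targeted transcript was lower on every array, at 82.7% and 70.6% of GATA1 Neg. Its mean of -0.39 ± 0.16 (SD, n = 2 clones) had an adjusted p of 0.603 by limma with Benjamini-Hochberg adjustment. Arrays of 1 clone correlated at 0.81 and 0.64 over all probes, and arrays with the same dye orientation correlated across the clones at 0.39 and 0.41, against 0.17 and 0.22 for the others. Between 61.6% and 66.4% of spots were well above background in a channel, and 0 spots were saturated. Of 11 megakaryocytic marker genes on the array 6 were above background in both RNAs on all 4 arrays, among them ITGA2B and GP9, while PF4, SELP and VWF were above it in neither RNA on any array. Of 5 erythroid marker genes 5 were above background on all arrays.

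The study asked which transcripts differ once GATA1 is reduced, and in GATA1 5-13 many histone transcripts lay above GATA1 Neg, whereas in GATA1 4-14 far smaller values were measured. Over the 65 replication-dependent genes the median was 0.60 and 0.51 on the arrays of GATA1 5-13 and 0.06 and -0.01 on those of GATA1 4-14, beside medians of all probes that were 0.00 or -0.00 in both clones. The 13 replacement genes had medians of 0.11 in GATA1 5-13 and -0.03 in GATA1 4-14. As values of a clone, the replication-dependent median was 0.54 in GATA1 5-13, a 1.46-fold ratio, and 0.00 in GATA1 4-14. A clone is 1 replicate, so its values have no test, and the 2 arrays of a clone show only the spread of labelling and hybridization.

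Counted probe by probe, 41 of the 110 histone probes (37.3%) lay above 1.5-fold in GATA1 5-13 with both arrays above 0, beside 1.69% of all 40974 probes tested, and 2 lay below it, beside 2.55%. In GATA1 4-14, 0 histone probes passed 1.5-fold in either direction, beside 0.949% of all probes higher and 0.893% lower. Both arrays of GATA1 5-13 lay above both of GATA1 4-14 for 74 histone probes, beside 24.2% of all probes, and the reverse held for 7, beside 25.2%. On all 4 arrays 30 histone probes were above 0 and 3 below, beside 12.8% and 13.4% of all probes.

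No histone probe passed an adjusted p of 0.05 by limma, two-sided, on the mean of the 2 clones, and neither did any other probe (0.0%). At an unadjusted p of at most 0.005, the level that the study's methods use, 1 histone probe was higher and 0 were lower, beside 0.327% and 0.574% of all probes. Below an unadjusted p of 0.05 there were 5 of the 110 histone probes, beside 7.43% of all probes, so no excess of histone probes was seen. The control RNA was the same on every array, so its own spread is not in these p-values, which measure the spread between 2 clones only. An error-weighted mean of the 4 arrays, which takes its error from the scanner program's error model and not from the clones, called 49 histone probes higher and 2 lower at an adjusted p of 0.05, beside 4.02% and 4.31% of all probes.

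**Figure D1:**
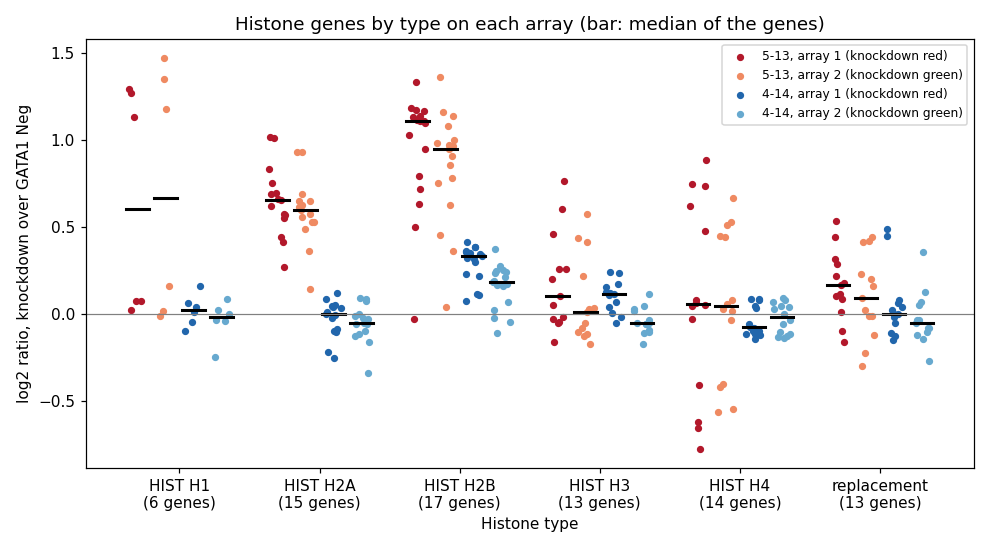
Log2 ratio of knockdown over GATA1 Neg (vertical axis) of each histone gene on each of the 4 arrays, with replication-dependent (HIST) genes split by type and the replacement genes together; points are genes (mean of a gene's probes) and bars are medians. H2B medians were 1.11 and 0.95 in GATA1 5-13 and 0.33 and 0.18 in GATA1 4-14, while the H3 medians were 0.12 or less on every array.

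The H2B genes, which encode a partner of H2A in the nucleosome core, had a median over 17 genes of 1.02 in GATA1 5-13, a 2.03-fold ratio, and of 0.26 in GATA1 4-14, a 1.19-fold ratio. With all probes this was the highest of the 5 types in both clones, but with dim probes left out the H1 median in GATA1 5-13 was 1.31 and the H2B median 1.05. Of 25 H2B probes 17 passed 1.5-fold upwards in GATA1 5-13, beside 1.69% of all probes. For 22 both arrays of GATA1 5-13 lay above both of GATA1 4-14, beside 24.2% of all probes. On all 4 arrays 18 were above 0, beside 12.8% of all probes. Of the 20 probes well above background in the same RNA on all arrays, 20 were above 0 on both arrays of GATA1 5-13 and 17 on both arrays of GATA1 4-14.

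HIST1H2BK, the H2B gene with the largest mean, was at 1.33 and 1.36 in GATA1 5-13 and at 0.41 and 0.37 in GATA1 4-14. The arrays of either clone lay close together and those of the clones did not overlap. Its mean was 0.87 ± 0.68 (SD, n = 2 clones), with an adjusted p of 0.674 by limma with Benjamini-Hochberg adjustment. HIST1H2BC was at 1.17 and 1.16 in GATA1 5-13 and at 0.35 and 0.28 in GATA1 4-14. HIST1H2BG was at 1.18 and 1.14, and at 0.35 and 0.25. HIST1H2BM was at 1.17 and 0.97, and at 0.39 and 0.21. In each of these genes all 4 arrays were above 0 and GATA1 5-13 was higher. The 2 probes of HIST1H2BE had values of 1.18 and 1.03 in GATA1 5-13 and of 0.36 and 0.24 in GATA1 4-14.

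Of the 18 H2B probes that carry a RefSeq accession and are well above background, 17 fell between 0.94 (HIST1H2BO) and 1.35 (HIST1H2BK) in GATA1 5-13. In GATA1 4-14 the same 17 probes fell between 0.18 (HIST1H2BJ) and 0.39 (HIST1H2BK). The remaining one is a second probe of HIST2H2BE, at 0.53 and -0.13. With the probes of other accessions and the dim ones, 8 of the 25 H2B probes lay outside that range, between -0.07 and 0.58 in GATA1 5-13, and 3 of these 8 were well above background on all arrays. HIST1H2BA, the H2B gene of the testis, was below that level in both RNAs. The coding sequences of these genes are nearly identical, so that 1 probe can bind transcripts of several of them. Probe sequences were not used here, and the part of such binding in the narrow band was not tested.

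**Figure D2:**
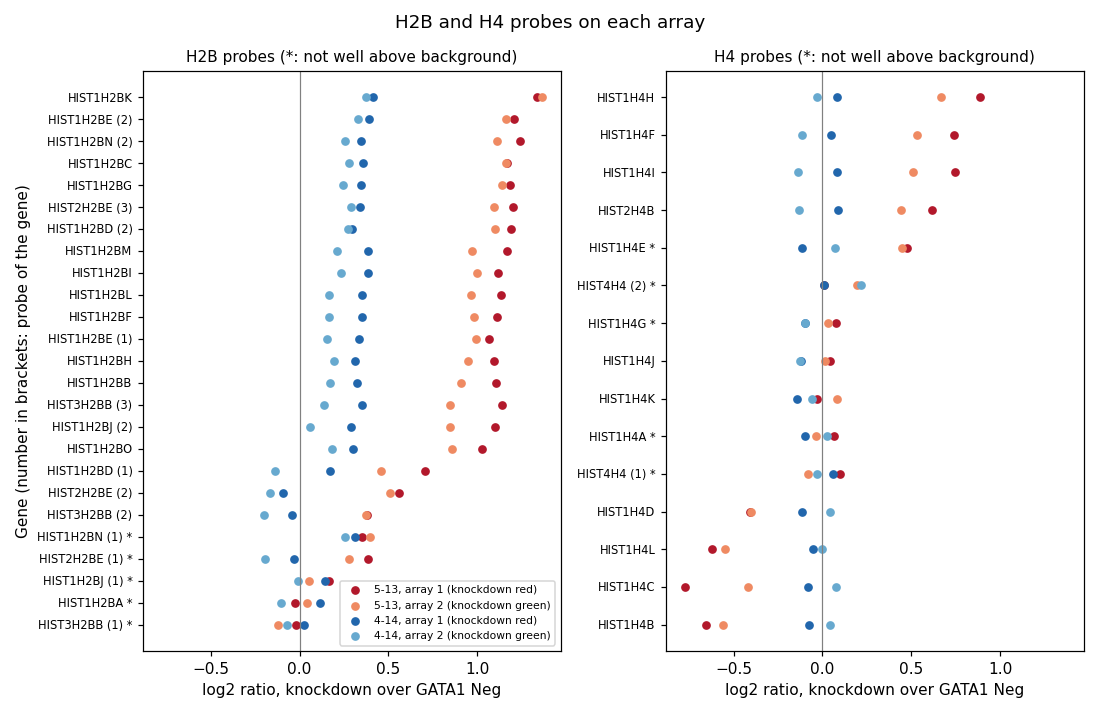
Log2 ratio of knockdown over GATA1 Neg (horizontal axis) of each H2B probe (left) and each H4 probe (right) on the 4 arrays, in order of the GATA1 5-13 value; an asterisk marks probes not well above background in the same RNA on all arrays. Of 25 H2B probes 17 lie between 0.94 and 1.35 in GATA1 5-13 and between 0.18 and 0.39 in GATA1 4-14, and the other 8 lie between -0.07 and 0.58 and between -0.13 and 0.29, while H4 probes reach from -0.61 to 0.78 in GATA1 5-13 and stay between -0.12 and 0.11 in GATA1 4-14.

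Over 15 H2A genes the median was 0.61 in GATA1 5-13, a 1.53-fold ratio, and -0.02 in GATA1 4-14. Of 23 probes 14 passed 1.5-fold upwards in GATA1 5-13, beside 1.69% of all probes. For 21 both arrays of GATA1 5-13 lay above both of GATA1 4-14, beside 24.2% of all probes. All 19 probes well above background were above 0 on both arrays of GATA1 5-13, whereas on both arrays of GATA1 4-14 there were 2 above and 7 below.

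HIST1H2AD, an H2A gene of chromosome 6, was at 1.02 and 0.93 in GATA1 5-13 and at -0.22 and -0.13 in GATA1 4-14. HIST2H2AA4, an H2A gene of chromosome 1, was at 1.01 and 0.93 in GATA1 5-13 and at -0.25 and -0.34 in GATA1 4-14 as the mean of its 2 probes. These genes lay on opposite sides of GATA1 Neg in the clones, by 1.14 and 1.26 from one clone to the other. Of the 2 probes of HIST1H2AG, 1 was above 0 on both arrays of GATA1 4-14, at 0.13 and 0.28.

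The H1 genes, which encode linker histones, split by whether they were measured. HIST1H1C was at 1.29 and 1.47 in GATA1 5-13 and at -0.10 and 0.09 in GATA1 4-14. HIST1H1E was at 1.27 and 1.35, and at -0.04 and 0.02. HIST1H1D was at 1.13 and 1.18, and at 0.04 and 0.00. These 3 genes encode the H1 subtypes H1.2, H1.4 and H1.3, and their ratios in GATA1 5-13 were 2.61, 2.48 and 2.22-fold, with GATA1 4-14 around 0. For HIST1H1C the mean of 0.69 ± 0.98 (SD, n = 2 clones) had an adjusted p of 0.741 by limma with Benjamini-Hochberg adjustment. HIST1H1A, HIST1H1B and HIST1H1T were not well above background in either RNA on any array, and no ratio is given for them.

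H3 genes stayed nearer 0 than H2A and H2B genes, and their median over 13 genes was 0.01 in GATA1 5-13 and 0.03 in GATA1 4-14. Of 17 probes 3 passed 1.5-fold upwards in GATA1 5-13, beside 1.69% of all probes. The 3 were a probe of HIST1H3B at 0.95 and 0.90, a probe of HIST1H3D at 1.00 and 0.81, and the probe of HIST1H3H at 0.76 and 0.57, named after their values were seen. HIST1H3C, the H3 gene with the lowest mean, was at -0.16 and -0.05 in GATA1 5-13 and at -0.05 and -0.06 in GATA1 4-14.

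Both HIST1H3B and HIST1H3D carry a second probe that overlaps the first. The second HIST1H3B probe, which starts 13 bases away, was at -0.03 and -0.03 in GATA1 5-13. The second HIST1H3D probe, 40 bases away, was at 0.20 and 0.02. Of the 7 overlapping probe pairs of 1 gene in the whole set, 4 differed by more than 1.5-fold in GATA1 5-13. In 1 of these 4, of HIST2H2AB, a probe was below background, and in another, of HIST3H2BB, the probes lie on opposite strands and share 1 base. Of the 5 pairs on 1 strand with both probes above background, 2 differed so, those of HIST1H3B and HIST1H3D. The H3 values of these genes therefore depend on the probe taken.

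The H4 genes were divided in GATA1 5-13, with a median of 0.04 over 14 genes that hides values on both sides. HIST1H4B was at -0.65 and -0.56, HIST1H4L at -0.62 and -0.55, HIST1H4C at -0.77 and -0.42, and HIST1H4D at -0.41 and -0.40 in GATA1 5-13. In GATA1 4-14 these 4 genes were between -0.11 and 0.08 on every array. On the other side, HIST1H4H was at 0.89 and 0.67, HIST1H4I at 0.74 and 0.51, HIST1H4F at 0.74 and 0.53, and HIST2H4B at 0.62 and 0.44 in GATA1 5-13, named after their values were seen. HIST1H4J was close to 0 in GATA1 5-13, at 0.05 and 0.02, and at -0.12 on both arrays of GATA1 4-14. Every one of these genes encodes the same H4 protein. HIST1H4B, the lowest in GATA1 5-13, was there at 65.7% of its level in GATA1 Neg, and its mean of -0.31 ± 0.42 (SD, n = 2 clones) had an adjusted p of 0.738 by limma with Benjamini-Hochberg adjustment.

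Of the 78 genes 77 were matched through their accessions to RefSeq, and 71 had a RefSeq promoter window, the 250 bases before and 50 bases from the transcription start on GRCh38.p14 (the first window listed for a gene). Exact letters were searched on both strands. The TATA box was searched as TATAAA and the motif that NF-Y binds as CCAAT. The octamer known from H2B promoters was searched as ATTTGCAT. For the H1 box the letters were AAACACA, and for a GATA site they were AGATAA. No matches overlap in the sequences shown. ATTTGCAT was in 13 of 17 H2B windows and 11 of 14 H2A windows, beside 1.8% of the 27305 genes with a window. AAACACA was in 6 of 6 H1 windows, beside 5.76% of all. CCAAT was in 50 of the 59 replication-dependent windows, but in 3 of 12 H4 windows, beside 35.7% of all. AGATAA was in 4 of the 59, beside 10.5% of all genes. A match is a description of letters and not a binding site.

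The windows of HIST1H2BM and HIST1H1C are shown as examples of the H2B and H1 genes that were high in GATA1 5-13. The 250 bases before the start lie at chr6:27814772-27815021 on the plus strand for HIST1H2BM and at chr6:26056471-26056720 on the minus strand for HIST1H1C, on GRCh38.p14, and the motifs searched are in capitals on either strand.
HIST1H2BM: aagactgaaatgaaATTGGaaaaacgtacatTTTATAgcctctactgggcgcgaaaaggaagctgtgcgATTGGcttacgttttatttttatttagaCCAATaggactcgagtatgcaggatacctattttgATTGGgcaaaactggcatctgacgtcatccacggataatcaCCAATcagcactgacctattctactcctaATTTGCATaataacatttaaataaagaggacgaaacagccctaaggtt
HIST1H1C: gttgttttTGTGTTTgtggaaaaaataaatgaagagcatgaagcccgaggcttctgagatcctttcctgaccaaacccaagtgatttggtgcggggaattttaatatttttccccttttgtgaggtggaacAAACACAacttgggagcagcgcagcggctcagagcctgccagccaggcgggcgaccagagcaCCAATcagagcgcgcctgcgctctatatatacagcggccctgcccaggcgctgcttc

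Among H4 genes the letters TATAAA divided the windows in the same way as the GATA1 5-13 values, an observation made after the values were seen and given without a test. The 5 genes without TATAAA in the window (HIST1H4E, HIST1H4F, HIST1H4H, HIST1H4I and HIST2H4B) lay between 0.46 and 0.78 in GATA1 5-13, all above 0 on both arrays. The 7 genes with it (HIST1H4B, HIST1H4D, HIST1H4G, HIST1H4J, HIST1H4K, HIST1H4L and HIST4H4) lay between -0.61 and 0.06. HIST1H4G and HIST4H4 among these were below background in both RNAs, HIST1H4E was so for the knockdown RNA of GATA1 4-14, and HIST1H4C and HIST1H4A have no window in the table. In GATA1 4-14 both sets were near 0, with medians of -0.02 and -0.04. TATAAA was in 12.0% of all windows. The windows of HIST1H4F and HIST1H4H hold TATAAG near the start, which this search did not count. The division is thus one of exact letters and not of genes with and without a TATA box.

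The windows of 2 genes that were lower in GATA1 5-13 and 2 that were higher are shown to display this difference in letters. They lie at chr6:26027284-26027533 (minus strand, HIST1H4B), chr6:27873535-27873784 (minus strand, HIST1H4L), chr6:26240143-26240392 (plus strand, HIST1H4F) and chr6:26285535-26285784 (minus strand, HIST1H4H), on GRCh38.p14, with the searched motifs in capitals.
HIST1H4B: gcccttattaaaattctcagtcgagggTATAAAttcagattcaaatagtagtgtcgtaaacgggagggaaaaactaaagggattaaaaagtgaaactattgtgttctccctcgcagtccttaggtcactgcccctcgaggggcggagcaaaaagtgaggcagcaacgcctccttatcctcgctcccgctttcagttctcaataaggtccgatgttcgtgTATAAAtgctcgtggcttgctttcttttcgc
HIST1H4L: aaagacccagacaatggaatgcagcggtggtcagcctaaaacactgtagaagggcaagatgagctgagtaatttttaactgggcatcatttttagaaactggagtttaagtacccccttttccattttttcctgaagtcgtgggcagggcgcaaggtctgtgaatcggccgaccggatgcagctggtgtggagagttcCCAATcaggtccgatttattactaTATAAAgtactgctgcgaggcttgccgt
HIST1H4F: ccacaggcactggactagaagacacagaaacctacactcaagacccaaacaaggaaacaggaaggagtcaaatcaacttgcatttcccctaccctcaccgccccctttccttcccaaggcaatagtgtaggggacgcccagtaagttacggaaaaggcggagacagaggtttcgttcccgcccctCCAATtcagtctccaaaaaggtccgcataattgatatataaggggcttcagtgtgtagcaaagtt
HIST1H4H: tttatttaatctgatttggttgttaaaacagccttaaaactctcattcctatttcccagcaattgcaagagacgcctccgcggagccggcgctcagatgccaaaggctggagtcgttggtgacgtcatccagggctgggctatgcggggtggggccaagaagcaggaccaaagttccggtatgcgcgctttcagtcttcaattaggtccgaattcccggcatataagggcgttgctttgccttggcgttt

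H2A and H2B genes often stand head to head and share the region between their starts. By the RefSeq windows, 10 pairs on opposite strands had their starts 193 to 247 bases apart, and in 9 of them both genes had a probe well above background. Within 6 of these 9 pairs the H2B gene lay above the H2A gene on all 4 arrays. As 1 probe can bind transcripts of several H2B genes, these pairs may not be separate measurements, which was not tested. In the pair of HIST1H2AJ and HIST1H2BM, the H2A gene was at 0.61 in GATA1 5-13 and -0.06 in GATA1 4-14, and the H2B gene at 1.07 and 0.30. In the pair of HIST1H2AE and HIST1H2BG, the values were 0.70 and -0.00 for the H2A gene and 1.16 and 0.30 for the H2B gene. Over the 9 pairs the H2B value exceeded the H2A value by a median of 0.17 in GATA1 5-13, with a range of -0.30 to 0.54, and by 0.30 in GATA1 4-14, with a range of 0.01 to 0.43. In the 3 other pairs, those of HIST1H2BJ, HIST2H2BE and HIST3H2BB, the mean of the H2B gene takes in further probes with lower values, as that of HIST1H2BN also does. The lowest difference is that of HIST3H2BB, where 1 further probe lies on the opposite strand and 1 is below background. Its RefSeq probe alone, at 0.99 in GATA1 5-13 and 0.25 in GATA1 4-14, was above HIST3H2A, at 0.73 and -0.04. H2A means take in lower probes too. The highest difference in GATA1 5-13, 0.54, is that of HIST1H2AC and HIST1H2BC. There 1 probe of HIST1H2AC, not well above background, was at 0.26 in GATA1 5-13. Its other probe was at 1.00, and HIST1H2BC at 1.17. The 2 probes of HIST2H2AC were at 0.79 and 0.22 in GATA1 5-13.

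**Figure D3:**
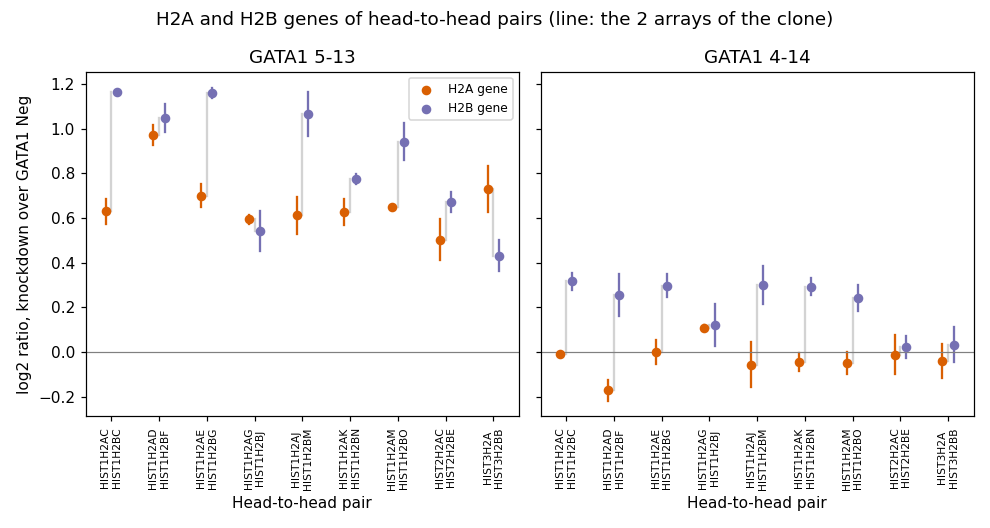
Log2 ratio of knockdown over GATA1 Neg (vertical axis) of the H2A and H2B genes of the 9 head-to-head pairs with both genes above background, in GATA1 5-13 (left) and GATA1 4-14 (right); points are the mean of the 2 arrays, coloured lines reach from one array to the other, and grey lines join a pair. In 6 pairs the H2B gene lies above the H2A gene on all 4 arrays.

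Several genes carry a probe well away from the gene's RefSeq probe. For HIST1H2BN, the RefSeq probe was at 1.24 and 1.11 in GATA1 5-13 and at 0.35 and 0.25 in GATA1 4-14. A probe designed on a cDNA, 13849 bases further on, was at 0.35 and 0.40 in GATA1 5-13 and below background in both RNAs of GATA1 4-14. For HIST1H2BJ, the RefSeq probe was at 1.10 and 0.85 in GATA1 5-13, and a cDNA probe 7030 bases away was not well above background in either RNA. For HIST1H2AC the order was turned, since the RefSeq probe was not well above background and a transcript probe 14419 bases away was at 1.00 and 0.99 in GATA1 5-13. For HIST2H2BE, a probe at 1.20 and 1.09 lay 1616 bases from one at 0.56 and 0.51, and another probe of it, below background in GATA1 Neg, was at least 1.26-fold higher in GATA1 5-13. Of the 24 genes with more than 1 probe, these were named after their values were seen.

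By chromosome, the replication-dependent genes formed 7 groups when probes within 500 kb were joined, with coordinates on hg18. The first HIST1 group spans chr6:25834542-26393535 and holds 34 genes, where the median was 0.53 in GATA1 5-13 and 0.00 in GATA1 4-14. The second, chr6:27201267-27223284, holds 5 genes with medians of 0.59 and 0.11. The third, chr6:27883265-27969626, holds 15 genes with medians of 0.61 and 0.03. The HIST2 group at chr1:148071020-148125868 holds 6 genes with medians of 0.52 and -0.02, and the HIST3 group at chr1:226679269-226714218 holds 3 genes with medians of 0.43 and 0.03. The medians of these 5 groups in GATA1 5-13 thus lay between 0.43 and 0.61.

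H2B genes had medians of 1.05, 0.94 and 1.00 in the 3 HIST1 groups in GATA1 5-13, and of 0.26, 0.26 and 0.28 in GATA1 4-14. These medians too may share signal, since H2B probes can bind transcripts of several genes, which was not tested. H2A genes had 0.63, 0.58 and 0.62 in GATA1 5-13. H3 genes had 0.15 in the first group and -0.02 in the third. HIST2H3PS2, alone at chr1:120706504-120706583, was at 0.01 in GATA1 5-13 and -0.04 in GATA1 4-14. HIST4H4, alone at chr12:14813329-14815332, was below background in both RNAs by both probes. Between the HIST1 genes lie 12 probes of 6 other genes (HFE, TRIM38 and 4 SLC17A genes), of which the 2 TRIM38 probes were well above background. As means of a clone, these 2 TRIM38 probes were at 0.17 and 0.20 in GATA1 5-13 and at -0.04 and -0.12 in GATA1 4-14. None of the 12 passed 1.5-fold in either clone. Over all probes the shares were 1.69% higher and 2.55% lower in GATA1 5-13, and 0.949% and 0.893% in GATA1 4-14. With shares this small, 12 probes are likely to hold few such probes or none.

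**Figure D4:**
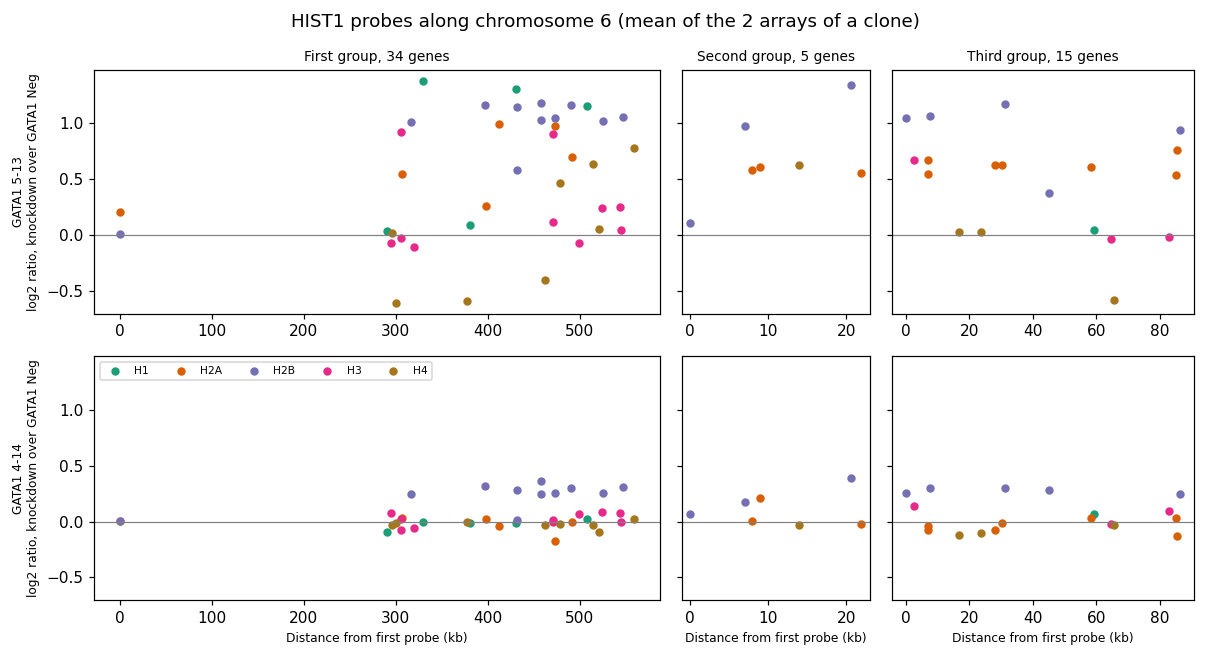
Log2 ratio of knockdown over GATA1 Neg (vertical axis, mean of the 2 arrays of a clone) of HIST1 probes against their distance in kb from the first probe of each of the 3 groups on chromosome 6, coloured by histone type, for GATA1 5-13 (top) and GATA1 4-14 (bottom). H2B, H2A and H4 probes with different values stand side by side in each group. H3 probes stand among them except in the middle group, which holds no H3 gene. In GATA1 4-14 the H2B medians of the groups are 0.26, 0.26 and 0.28. Single H2B probes lie near 0 there, and single probes of other types lie above these H2B probes.

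Of the replacement genes, H2AFY2, which encodes macroH2A2, a variant of silent chromatin, was the histone probe with an unadjusted p of at most 0.005. It was at 0.54 and 0.42 in GATA1 5-13 and at 0.49 and 0.36 in GATA1 4-14, so that the clones overlapped and every array was above 0. The mean of 0.45 ± 0.04 (SD, n = 2 clones) had a p of 0.00361 and an adjusted p of 0.522 by limma with Benjamini-Hochberg adjustment. Without the first array of GATA1 5-13 the p was 0.00526, and without the first array of GATA1 4-14 it was 0.00695 by limma, so the call at 0.005 rests on these arrays. H2AFY, which encodes macroH2A1, was at 0.10 and 0.16, and at -0.11 and -0.03.

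The other H2A variants were mostly closer to 0. H2AFJ, the gene of H2A.J, was at 0.44 and 0.41 in GATA1 5-13 and at -0.00 and -0.05 in GATA1 4-14 over its 3 probes, of which 1 had another accession and a value of 0.13 in GATA1 5-13. H2AFX, whose product is phosphorylated at DNA breaks, was at 0.29 and 0.44, and at -0.15 and -0.03. Both genes lay higher in GATA1 5-13 than in GATA1 4-14 without overlap, and so did H2AFY, H2AFZ, H2AFB2 and H1FX. Of the 24 replacement probes 12 did so, beside 24.2% of all probes. H2AFZ, the gene of H2A.Z, was at 0.22 and 0.09, and at 0.03 and 0.05. H2AFV, which encodes a second H2A.Z, was at 0.01 and 0.20, and at -0.12 and 0.07, and its 2 probes disagreed in sign in GATA1 5-13. H2AFB2, a short H2A of the testis, was at 0.18 and 0.02 in GATA1 5-13, and its knockdown RNA was below background in GATA1 4-14.

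Among H1 variants, H1FX was at 0.17 and 0.23 in GATA1 5-13 and at 0.06 and 0.13 in GATA1 4-14, above 0 on every array. H1F0, the linker histone of resting and differentiated cells, was at -0.10 and -0.22, and at 0.00 and -0.12. H1FNT, of the testis, was at -0.16 and -0.12, and at 0.08 and -0.10. H1FOO, of the oocyte, was below background in both RNAs.

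H3F3A and H3F3B both encode H3.3, which replaces H3 outside of replication. H3F3A, as the mean of 5 probes, was at 0.32 on the first and -0.30 on the second array of GATA1 5-13, and at 0.45 and -0.27 in GATA1 4-14. The sign thus followed the array number and not the clone, and the means of the clones were 0.01 and 0.09. All 5 H3F3A probes showed this order, as did 12 histone probes in all, beside 8.78% of all probes. The array number is also the dye orientation, so dye orientation and a shared preparation cannot be told apart. H3F3B was at 0.11 and -0.01, and at 0.04 and -0.08.

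**Figure D5:**
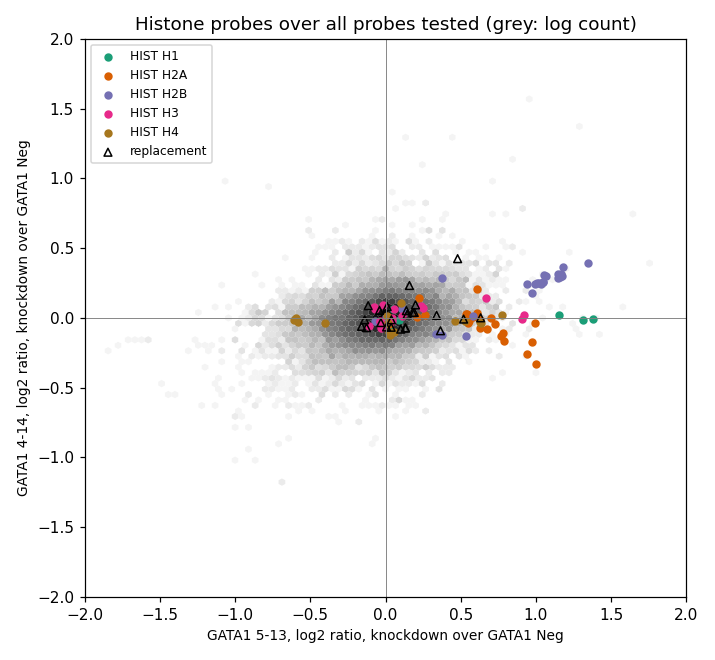
Log2 ratio of knockdown over GATA1 Neg in GATA1 5-13 (horizontal axis) and GATA1 4-14 (vertical axis), each the mean of 2 arrays, for all probes tested (grey cells, darker for more probes; probes beyond the axes are not drawn) and for histone probes by type (coloured points, open triangles for replacement genes). To the right of most probes stand 17 H2B probes, at 0.94 to 1.35 in GATA1 5-13 and 0.18 to 0.39 in GATA1 4-14. The 3 H1 probes above background, at 1.15 to 1.38 with values near 0 in GATA1 4-14, stand there too, while 8 H2B probes lie further left.

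Genes that supply histones had medians near 0. In a list of 25 measured genes of histone mRNA transcription and processing, medians were 0.07 and -0.01. Gene values ranged from -0.30 to 0.27 in GATA1 5-13. Of 37 probes 0 passed 1.5-fold in either clone. Over all probes the shares were 1.69% higher and 2.55% lower in GATA1 5-13, and 0.949% and 0.893% in GATA1 4-14. By limma 0 had a p of at most 0.005, beside 0.327% higher and 0.574% lower over all probes. With shares this small, a list of this size is likely to hold few such probes or none. SLBP, which binds the stem-loop of histone mRNAs, was at 0.16 and 0.10 in GATA1 5-13 and at -0.00 and -0.13 in GATA1 4-14. NPAT, which turns on replication-dependent histone genes, had clone means of -0.27 and -0.33 by its 2 probes in GATA1 5-13 and of -0.04 and -0.07 in GATA1 4-14. CENPA, the H3 variant of centromeres, was at 0.23 and 0.17, and at 0.11 and 0.06. The medians of 39 S-phase genes were -0.02 and -0.01, with 12 of 54 probes higher in GATA1 5-13 than in GATA1 4-14 without overlap and 17 the reverse, beside 24.2% and 25.2% of all probes. Of these S-phase probes 1 was lower past 1.5-fold in GATA1 5-13, beside 2.55% of all probes. The S-phase gene values in GATA1 5-13 ranged from -0.88 to 0.40. In 32 genes of histone chaperones and variant exchange, medians were -0.05 and 0.02. Of their 53 probes 3 were lower past 1.5-fold in GATA1 5-13, beside 2.55% of all probes. In GATA1 4-14, 1 was higher past 1.5-fold, beside 0.949% of all probes.

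Erythroid markers also lay higher in GATA1 5-13 than in GATA1 4-14. Of their 8 probes 4 passed 1.5-fold upwards in GATA1 5-13, beside 1.69% of all probes. The gene values ranged from 0.01 to 0.96 in GATA1 5-13 and from -0.42 to -0.14 in GATA1 4-14. For 7 probes both arrays of GATA1 5-13 lay above both of GATA1 4-14, beside 24.2% of all probes. Megakaryocytic marker genes ranged from -0.89 to 0.06 in GATA1 5-13 and from -0.18 to 0.23 in GATA1 4-14, with PF4, SELP and VWF, above background on no array, included. For 12 of their 18 probes both arrays of GATA1 4-14 lay above both of GATA1 5-13, beside 25.2% of all probes. The reverse held for 1, beside 24.2%. Of these probes 2 were lower past 1.5-fold in GATA1 5-13, beside 2.55% of all probes, and 0 were higher, beside 1.69%. The 4 monocytic marker genes ranged from -1.66 to 0.23 in GATA1 5-13 and from -1.38 to 0.35 in GATA1 4-14. The lowest was ITGAM, the 1 of them above background in both RNAs on all arrays, and CSF1R, above 0 in both clones, was below background. The part of such differences in cell state in the histone values was not tested, and in RNA of whole cultures fewer cells of a type and less RNA per cell cannot be told apart.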

How the data were processed

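RNA of 2 Meg-01 clones with a GATA1 shRNA was compared with GATA1 Neg on 4 two-colour arrays, 2 with exchanged dyes per clone. Labelled RNA was made with an aminoallyl amplification kit, known to start from an oligo(dT) primer, which the labels do not describe. The authors deposited Agilent Feature Extraction 9.5.3.1 output, in which the mean and local background intensity of each spot are neither background-corrected nor normalized. The deposited log10 ratio of each spot, background-subtracted and dye-normalized by that program, and the deposited series-wide log10 values, which equal it within 4.97e-06 after turning to knockdown over control, served as alternatives.

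Intensities were processed with limma 3.58.1 in R 4.3.3, with normexp (offset 50) on all 45015 spots and loess within arrays. Control and outlier spots were left out, spots of a probe averaged, ratios turned to knockdown over control, and the arrays of a clone averaged to 1 replicate. The moderated two-sided test against 0 with Benjamini-Hochberg adjustment ran over 40974 probes, and was tested on simulated data. Gene values are means of all their probes, dim ones included. Columns of samples from other series numbered 0.

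The members, gene lists and motifs were chosen with earlier results of these data known. Named genes were GATA1, all replacement genes, the 6 HIST genes with the largest and the 6 with the smallest mean and the 4 with the largest difference between the clones in each direction (with a probe well above background), probes with p of at most 0.005, SLBP, NPAT, CENPA and HIST4H4. Probe coordinates are on hg18 and promoters, from RefSeq, on GRCh38.p14. Alternatives covered background correction, the source of the ratios, normalization, dim and outlier spots, moderation, the combination of arrays, the probe of a gene and each array left out. The number of arrays limits the precision.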

Additional observations from a re-analysis of the deposited data

Results flagged for a closer look

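For 7 of the named histone genes, taken as the mean of a gene's probes, the clones lay on opposite sides of GATA1 Neg on both arrays of each. The difference between the clones, GATA1 5-13 minus GATA1 4-14 on the log2 scale, was 1.26 for HIST2H2AA4 and 1.14 for HIST1H2AD. It was 0.46 for H2AFX, 0.45 for H2AFJ, 0.21 for H2AFY, 0.18 for H2AFB2 and 0.15 for HIST1H4J. For H2AFB2 the knockdown RNA was below background in GATA1 4-14, so its value there is only a bound and its side of GATA1 Neg is uncertain. For H2AFJ this holds for the mean of its 3 probes only. Its 2 probes above background had GATA1 4-14 arrays on both sides of GATA1 Neg, at 0.05 and -0.05 and at 0.11 and -0.13. HIST1H4J was at 0.05 and 0.02 in GATA1 5-13, so near 0 that its side is uncertain too. HIST2H2AA4 and HIST1H2AD were named because of their large difference between the clones, and the share of such genes over the array was not counted. The difference was not tested, since each clone is 1 replicate.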

How the results depend on the processing

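The count of histone probes at an unadjusted p of at most 0.005 by limma was 1 and became 0 with no background correction, with Feature Extraction log ratios, with the series-wide values, with dim probes left out and with an intensity trend, and 0 to 1 with an array left out. With the 4 arrays as 4 values and no replicate block the count was 2, with 2 also past an adjusted p of 0.05 (H2AFY2 and the cDNA probe of HIST1H2BN), beside 3.03% of all probes. With the replicate block, whose number is also the dye orientation, it was 2 at 0.005 and 1 after adjustment, beside 0.657%. Deviations of arrays with the same number correlated at 0.77, and dye orientation and a shared preparation cannot be told apart, since each number holds 1 orientation. The error-weighted mean called 53 and 51 histone probes.

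The median of replication-dependent genes in GATA1 5-13 (0.54) was 0.35 with no background correction, 0.76 with Feature Extraction log ratios and with the series-wide values, 0.65 with dim probes left out and 0.61 with the brightest probe of a gene. It was 0.51 to 0.60 with an array left out, and that of GATA1 4-14 was -0.013 to 0.061. The replacement median in GATA1 5-13 was 0.094 to 0.17 and in GATA1 4-14 -0.051 to 0.00054 in the same way. The H2B median stayed within 0.95 to 1.11 and 0.18 to 0.33 in the clones over all alternatives, whereas the H1 median in GATA1 5-13 ran from 0.50 (no background correction) to 1.31 (dim probes left out), past that of H2B, and the H2A median there from 0.45 to 0.77. Of the 14 medians 6 changed sign under some alternative, all 0.034 or less in size as reported, among them that of H3 in GATA1 5-13 (-0.019 to 0.10). Of 58 values of named genes 17 changed sign, all 0.088 or less in size. The sign of such values near 0 is not settled. A clone left out leaves the other clone's values, with no test, and the 4-array fits do not alter medians of a clone.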
